A study of Mus musculus with 12 samples.

Results

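The comparison covers the 6 libraries of mouse bone marrow stromal cells that share a green fluorescent protein (GFP) mark and come either from the site of tumour inoculation or from culture, out of 12 libraries in the series. They were chosen by their titles as the 3 replicates named TUMOR and the 3 named NC. TUMOR cells are GFP cells sorted out of the inoculation site of mice that had received them together with cells of the Lewis lung carcinoma line, which was derived from a mouse tumour and here carries a red fluorescent protein. NC cells are GFP stromal cells in primary culture, and their source is labelled as sorted like that of the other groups. The 2 other groups, used here only for reference, are GFP cells sorted from marrow: BM from mice given stromal and carcinoma cells together, and HOMING from mice given stromal cells alone under the skin. All 4 groups are labelled with strain C57BL/6 and with the genotype "wide type". How GFP was introduced, the sort gate and its purity, the time after injection, and the age and sex of the animals are not given in the sources used here. Nothing in the labels ties the replicates to different mice or cultures, so p-values measure only the spread between these samples, which may be technical.

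Bone marrow stromal cells are fibroblast-like cells that secrete matrix, growth factors and chemokines and support blood formation. When oxygen falls, the prolyl hydroxylases of the EGLN family stop marking HIF transcription factors for destruction, and HIF then raises genes of glycolysis, collagen modification and mitophagy. When amino acids run short or proteins misfold, translation slows and the transcription factor ATF4 raises genes that import and make amino acids, and both programmes are read here as lists of genes.

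Levels are given as FPKM (fragments counted on a transcript, scaled for its length and for sequencing depth), always in the order replicate 1, 2 and 3. Changes are log2 values ± SE of TUMOR against NC from edgeR with Benjamini-Hochberg adjustment over the 12314 genes tested, with "rose", "fell" and "called" kept for genes at an adjusted p under 0.05 that differed at least 2-fold. Libraries held 43232145 to 46166519 expected counts. One replicate stood apart in each group: the mean chi-square per gene between replicate pairs was 32.0 and 28.1 for TUMOR 1 against the other TUMOR libraries and 3.09 between TUMOR 2 and 3, and it was 49.9 and 29.4 for NC 3 against the other NC libraries and 11.7 between NC 1 and 2. No pair agreed within sampling noise. The stromal markers Vim, Col1a1, Col1a2, Col3a1, Pdgfra and Pdgfrb were present in both groups, and the summed FPKM of the 8 stromal markers was 1859, 1807 and 1999.9 in NC and 2393, 2473 and 2434 in TUMOR. The surface genes Thy1 and Nt5e, often used to define such cells, stood under 1 FPKM in all 6 libraries.

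In the whole transcriptome 1200 genes were higher in TUMOR (9.75% of those tested) and 819 were lower (6.65%). These shares are the base for every list count below. Among the 11061 genes whose NC mean reached 1 FPKM, 658 were higher (5.95%) and 765 lower (6.92%). Of the 1253 tested genes under 1 FPKM in NC, 542 were higher (43.3%) and 54 lower (4.31%), but such genes entered the test only through a group in which they were high, so that count is a description. Without TUMOR 1 the counts for all genes were 1108 higher and 745 lower, and without NC 3 they were 1244 and 777. Of all calls 59.44% were higher with TMM scaling and 69.68% with library size alone, which moved the median log2 change of all tested genes from 0.009 to 0.13. Changes of at least 4-fold among genes expressed in NC numbered 84 up and 146 down, and those of at least 8-fold 17 up and 38 down.

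**Figure D1:**
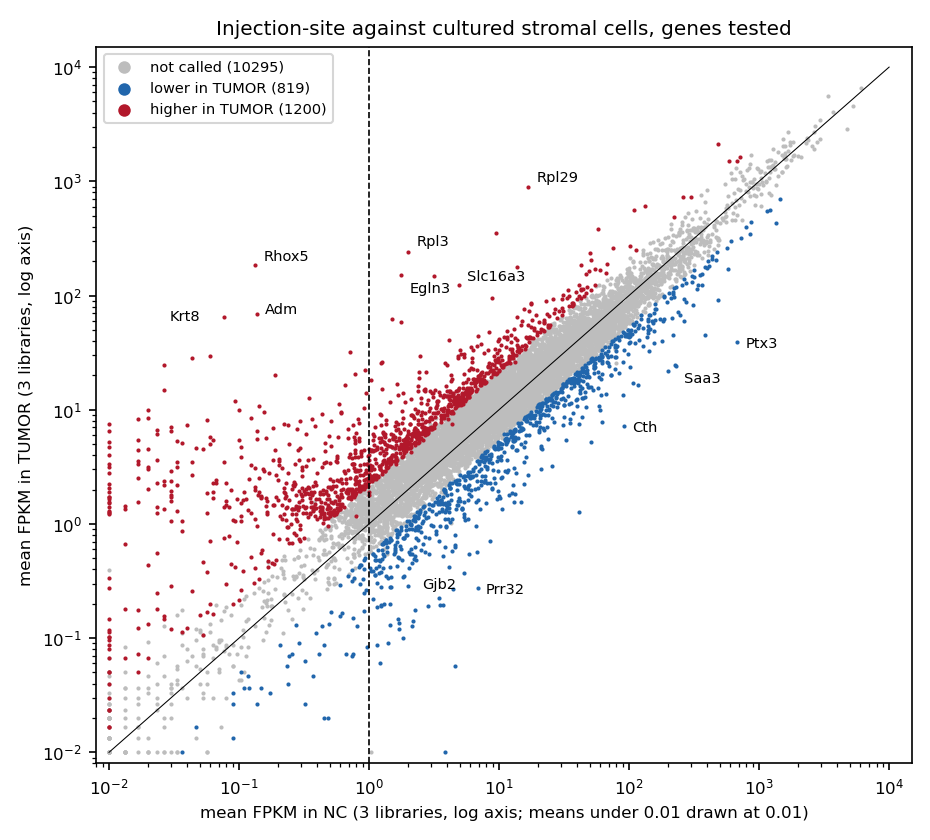
Mean FPKM of the 12314 tested genes in NC (x axis, log scale) and TUMOR (y axis, log scale), each over 3 libraries, with called genes in colour, the line of equal level in black and the level of 1 FPKM in NC dashed. Most points lie along the line, 1200 genes are called above it and 819 below it, and Rhox5, Adm and Krt8 lie far above it left of the dashed line.

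Genes of the response to low oxygen were higher in the injection-site cells. Of 19 tested hypoxia genes 13 were higher and 0 lower, with a median log2 change of 1.57 against 0.009 over all genes tested. Egln3 (Entrez 112407), a prolyl hydroxylase that marks HIF for destruction and is itself raised by HIF, stood at 2.09, 1.44 and 1.78 FPKM in NC and 215, 115 and 126 FPKM in TUMOR (log2 6.31 ± 0.25, adjusted p = 5.09e-10). The groups lay far apart, and TUMOR 1 was higher than TUMOR 2 and 3. Its relative Egln1 rose from 35.0, 30.4 and 27.8 FPKM to 109.9, 95.4 and 96.3 FPKM (log2 1.57 ± 0.08). Ankrd37 (Entrez 654824), an ankyrin repeat gene raised by HIF, stood at 1.67, 0.75 and 1.33 FPKM in NC and 27.1, 26.1 and 24.6 FPKM in TUMOR (log2 4.24 ± 0.19, adjusted p = 1.19e-09). Here the 3 TUMOR libraries were close to each other. Adm (Entrez 11535), which encodes the vessel-dilating peptide adrenomedullin, stood at 0.22, 0.12 and 0.07 FPKM in NC and 101.08, 51.0 and 56.1 FPKM in TUMOR (log2 8.88 ± 0.38, adjusted p = 9.11e-10).

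Enzymes that modify collagen rose within the same list. Plod2 (Entrez 26432), a lysyl hydroxylase that prepares collagen for cross-linking, stood at 12.9, 11.5 and 10.3 FPKM in NC and 55.0, 45.5 and 45.0 FPKM in TUMOR (log2 1.94 ± 0.09, adjusted p = 1.18e-09). The collagen prolyl hydroxylase genes P4ha1 and P4ha2 rose by log2 1.03 and 1.85, and the cross-linking enzyme gene Loxl2 rose by log2 2.42. Bnip3, whose product marks mitochondria for removal, rose from 66.8, 47.3 and 35.6 FPKM to 248, 229 and 228 FPKM (log2 2.12 ± 0.15), and its relative Bnip3l rose by log2 1.19. The other called members were the Myc antagonist gene Mxi1 (log2 2.30), the mitochondrial gene Higd1a (log2 1.66) and the histone demethylase gene Kdm3a (log2 1.09). The 6 members not called were Vegfa at log2 -0.47, Lox at 0.07, Ddit4 at 0.23, Ero1a at 0.23, Ndrg1 at 0.62 and Bhlhe40 at 0.63, and Car9 was not tested. Vegfa, the main vessel growth factor raised by HIF, stood at 113, 106 and 105 FPKM in NC and 87.2, 85.1 and 83.6 FPKM in TUMOR, short of the 2-fold minimum. Over the called members the ratio of TUMOR 1 to the mean of TUMOR 2 and 3 had a median of 1.14, against 1.00 over all genes of at least 5 FPKM in TUMOR, while Egln3 and Adm had 1.78 and 1.89. Fewer cells of a type and less RNA per cell cannot be told apart in such bulk samples. Members other than Egln3, Adm, Plod2 and Ankrd37 were picked with their values known.

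The promoters of the hypoxia genes were searched for ACGTG, the core letters that HIF binds, on both strands in the 250 bases before the start site. Of the 19 tested members 13 were in the RefSeq promoter table of build GRCm38.p6, and 10 of these 13 (76.92%) held the motif, against 25.53% of the 9512 tested genes in the table and 16.57% of its 32851 windows. It was in 7 of the 10 called members that the table holds. ACGTG also lies inside the palindrome CACGTG, which is then found on both strands. A match of letters is a description and shows no binding. The windows of Egln3 and Ankrd37, the named hypoxia genes in that table that hold the motif, are printed 5′ to 3′ along the gene's strand with the motif in capitals. They cover chr12:54204045-54204124 for Egln3 and chr8:45999851-45999930 for Ankrd37, both on the minus strand, and 1 of the 2 matches of Ankrd37 falls in its window.
Egln3: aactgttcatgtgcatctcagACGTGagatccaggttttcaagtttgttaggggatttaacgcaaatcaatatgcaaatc
Ankrd37: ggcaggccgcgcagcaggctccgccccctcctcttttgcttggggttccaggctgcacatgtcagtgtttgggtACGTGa

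**Figure D2:**
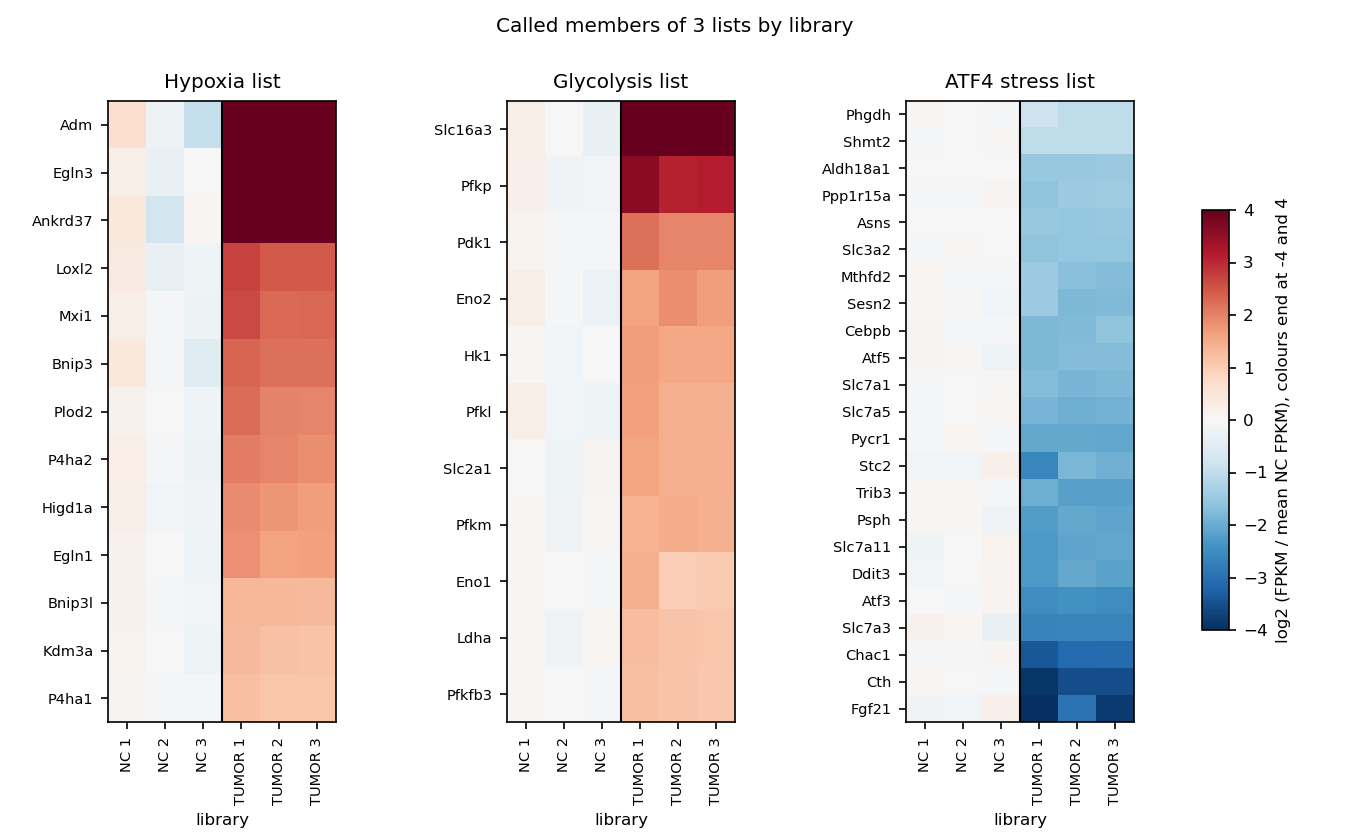
Called members of the hypoxia, glycolysis and ATF4 stress lists (vertical axis) in the 3 NC and 3 TUMOR libraries (horizontal axis), coloured by the log2 ratio of FPKM to the NC mean, with colours ending at -4 and 4. The 13 hypoxia and 11 glycolysis genes are higher in all 3 TUMOR libraries and the 23 ATF4 genes are lower in all 3.

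Of 21 tested genes of glucose uptake and glycolysis 11 were higher and 0 lower, with a median log2 change of 1.01. The glucose transporter gene Slc2a1 rose from 69.0, 60.6 and 73.7 FPKM to 202, 182 and 188 FPKM (log2 1.37 ± 0.07). Hk1 (Entrez 15275), hexokinase of the first step, stood at 32.4, 28.7 and 30.8 FPKM in NC and 97.9, 89.7 and 89.5 FPKM in TUMOR (log2 1.47 ± 0.06, adjusted p = 1.1e-09). All 3 phosphofructokinase genes, which code for the enzyme of the committed step, were called. Pfkp (Entrez 56421) stood at 4.79, 3.78 and 3.81 FPKM in NC and 50.5, 34.8 and 36.6 FPKM in TUMOR (log2 3.18 ± 0.14, adjusted p = 1.15e-09), Pfkm (Entrez 18642) at 9.48, 8.25 and 9.46 FPKM in NC and 23.9, 25.5 and 24.3 FPKM in TUMOR (log2 1.31 ± 0.06, adjusted p = 1.06e-09), and Pfkl rose by log2 1.39. Among the TUMOR libraries TUMOR 1 was the highest for Pfkp and the lowest for Pfkm. Pdk1 (Entrez 228026), the kinase that keeps pyruvate out of mitochondria, stood at 10.7, 9.42 and 9.20 FPKM in NC and 45.1, 37.6 and 37.6 FPKM in TUMOR (log2 1.92 ± 0.08, adjusted p = 5.25e-10).

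At the end of the pathway, Slc16a3 (Entrez 80879), the lactate exporter MCT4, had one of the largest rises, at 5.74, 4.93 and 3.99 FPKM in NC and 173, 93.5 and 105 FPKM in TUMOR (log2 4.50 ± 0.23, adjusted p = 3.82e-09). Ldha, which makes lactate, rose from 709, 604 and 702 FPKM to 1575, 1479 and 1435 FPKM (log2 1.03 ± 0.06), close to the 2-fold minimum. The enolase genes Eno1 and Eno2 rose by log2 1.05 and 1.51, and Pfkfb3, a regulator of phosphofructokinase, by log2 1.01. Members under the minimum included Gapdh at log2 0.63, Pkm at 0.57, Pgam1 at 0.96 and Hk2 at 0.20. Without TUMOR 1 the list had 8 members called higher. The mitochondrial respiratory chain gave 0 higher and 0 lower of 23 tested subunits at these thresholds, with 19 of the 23 at an adjusted p under 0.05 and a median log2 change of -0.06. Slc2a1, Pfkl, Ldha, Eno1, Eno2, Pfkfb3, Pgam1 and Hk2 were picked with their values known.

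Genes of the ATF4 stress response were lower in the injection-site cells. Of 26 tested members 23 fell and 0 rose, with a median log2 change of -1.90, and all 26 had an adjusted p under 0.05. Cth (Entrez 107869), the enzyme that makes cysteine from cystathionine, stood at 95.9, 90.6 and 88.6 FPKM in NC and 6.2, 7.80 and 7.77 FPKM in TUMOR (log2 -3.78 ± 0.08, adjusted p = 5.85e-12). Chac1 (Entrez 69065), an enzyme that degrades glutathione and a classical ATF4 target, stood at 192, 192 and 218 FPKM in NC and 19.08, 23.2 and 23.8 FPKM in TUMOR (log2 -3.31 ± 0.09, adjusted p = 2.89e-11). Asns (Entrez 27053), asparagine synthetase, stood at 268, 264 and 268 FPKM in NC and 93.5, 91.9 and 93.9 FPKM in TUMOR (log2 -1.64 ± 0.04, adjusted p = 2.89e-11). Replicates were close to each other on both sides for these 3 genes.

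Further members covered each arm of amino acid supply. Aldh18a1 (Entrez 56454), the first enzyme of proline synthesis, stood at 139, 139 and 139 FPKM in NC and 49.1, 48.9 and 50.2 FPKM in TUMOR (log2 -1.62 ± 0.04, adjusted p = 2.89e-11), and Pycr1, which completes proline, fell, with a log2 change of -2.18. Of serine and one-carbon synthesis, Phgdh, Psph, Shmt2 and Mthfd2 had log2 changes of -1.08, -2.26, -1.14 and -1.74, whereas Psat1 was not called at -0.51. The transporter genes Slc7a5, Slc3a2, Slc7a1, Slc7a3 and Slc7a11 fell with log2 changes of -2.03, -1.68, -1.91, -2.62 and -2.28. The heavy chain Slc3a2 and its partner Slc7a5 form the large neutral amino acid transporter, and Slc7a11 imports cystine. Stress transcription factors fell too: Ddit3, which encodes CHOP, from 246, 263 and 284 FPKM to 54.0, 64.3 and 59.9 FPKM (log2 -2.28 ± 0.08), Atf3 (log2 -2.58) and the pseudokinase gene Trib3 (log2 -2.22). Atf4 itself, whose protein is controlled mainly through translation, stood at 506, 486 and 476 FPKM in NC and 314, 299 and 301 FPKM in TUMOR (log2 -0.81), and Vldlr at log2 -0.44; with Psat1 these were the 3 members not called. The count was 22 or 23 in every alternative fit that kept the fold minimum. Members other than Cth, Chac1, Asns and Aldh18a1 were picked with their values known.

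The promoters of this list were searched for TGATGNAA, the composite element that C/EBP and ATF factors bind, on both strands. It was in 7 of the 23 members that the table holds (30.43%) and in 6 of the 20 called ones, against 2.38% of the tested genes and 3.45% of all windows. The windows of Asns and Chac1, the named members that hold it, and of Slc7a11, which holds it on each strand and was chosen after its sequence was seen, lie at chr6:7693210-7693289 (minus strand), chr2:119351013-119351092 (plus strand) and chr3:50443617-50443696 (minus strand) of GRCm38.p6. The capitals mark the element, read as TTGCATCA where it lies on the other strand.
Asns: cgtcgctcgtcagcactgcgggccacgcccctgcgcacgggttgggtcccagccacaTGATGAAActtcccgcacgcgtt
Chac1: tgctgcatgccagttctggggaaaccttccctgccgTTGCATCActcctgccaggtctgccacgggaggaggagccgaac
Slc7a11: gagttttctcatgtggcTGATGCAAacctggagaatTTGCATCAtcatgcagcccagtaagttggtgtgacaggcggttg

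Of 20 tested genes of the unfolded protein response, 1 rose and 3 fell, with a median log2 change of -0.40. The chaperone gene Hspa5 (BiP) fell from 674, 731 and 764 FPKM to 314, 322 and 312 FPKM (log2 -1.32 ± 0.05, adjusted p = 4.65e-10), Herpud1, of protein removal from the endoplasmic reticulum, fell from 146, 137 and 128 FPKM to 41.9, 44.1 and 44.6 FPKM (log2 -1.77 ± 0.05, adjusted p = 2.89e-11), and the transcription factor gene Xbp1 fell, with a log2 change of -1.43. Sdf2l1 was the 1 that rose (log2 1.30). Hsp90b1, Calr and Pdia4 were not called, at log2 0.49, 0.04 and 0.12.

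Of 22 tested p53 targets and cell cycle inhibitors 2 rose and 6 fell (median log2 -0.46). Gadd45a (Entrez 13197), a DNA damage and stress gene, stood at 220.4, 220.2 and 234 FPKM in NC and 24.7, 24.8 and 23.7 FPKM in TUMOR (log2 -3.33 ± 0.06, adjusted p = 1.75e-12), and the 3 libraries of each group were within a narrow band. Sesn2, a restraint on mTORC1 that also belongs to the ATF4 list, fell from 47.2, 47.3 and 42.8 FPKM to 16.6, 13.2 and 13.4 FPKM (log2 -1.79 ± 0.08), while its relative Sesn1 rose from 1.5, 1.42 and 1.63 FPKM to 6.01, 5.58 and 5.15 FPKM (log2 1.74 ± 0.10). Cdkn1a, which encodes the cell cycle inhibitor p21 and was picked with its values known, rose from 14.1, 13.4 and 25.8 FPKM to 94.4, 76.2 and 80.8 FPKM (log2 2.11 ± 0.20, adjusted p = 8.28e-07). The polo-like kinase gene Plk2 fell from 229.8, 236 and 270.1 FPKM to 48.4, 76.4 and 78.4 FPKM (log2 -1.98 ± 0.14). Plk3 and the antiproliferative gene Btg2, picked with their values known, fell as well (log2 -2.25 and -1.66), and Mdm2 and Bax were not called (log2 -0.28 and 0.01).

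Of 41 tested cell cycle genes 7 rose and 2 fell, and the median log2 change was 0.41. Mki67 (Entrez 17345), the proliferation antigen Ki-67, stood at 22.7, 23.6 and 23.3 FPKM in NC and 88.96, 87.3 and 91.0 FPKM in TUMOR (log2 1.82 ± 0.05, adjusted p = 4.45e-11). Aurkb (Entrez 20877), a kinase of chromosome segregation, stood at 13.8, 13.2 and 14.04 FPKM in NC and 70.2, 63.1 and 62.7 FPKM in TUMOR (log2 2.13 ± 0.06, adjusted p = 3.41e-11). The libraries of each group were close to each other in both genes. Cyclin B2 (Ccnb2) and the checkpoint kinase gene Bub1 rose by log2 1.88 and 1.14, followed by the centromere genes Cenpa and Cenpe (log2 1.39 and 1.37) and cyclin D3 (Ccnd3, log2 1.04). Ccnd1, the cyclin of G1, fell from 238, 262 and 301 FPKM to 121, 150.4 and 151 FPKM (log2 -1.05 ± 0.10), and the replication licensing gene Mcm2 fell, with a log2 change of -1.02. The other replication genes were not called, among them Mcm3, Mcm5 and Pcna at log2 0.08, 0.05 and 0.12. With library size alone as the scaling, 11 of the 41 were higher in place of 7. Cenpa, Cenpe, Ccnd3, Ccnd1 and Mcm2 were picked with their values known.

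Of 30 tested chemokines and cytokines that draw or feed myeloid cells 3 rose and 12 fell, with a median log2 change of -0.70. Il6 (Entrez 16193), the inflammatory cytokine, stood at 12.8, 10.8 and 16.3 FPKM in NC and 1.65, 1.87 and 1.91 FPKM in TUMOR (log2 -3.0 ± 0.19, adjusted p = 2.08e-08). Csf1 (Entrez 12977), the growth factor of macrophages, stood at 234, 285 and 296 FPKM in NC and 81.2, 91.1 and 88.95 FPKM in TUMOR (log2 -1.75 ± 0.08, adjusted p = 1.86e-09). Ccl2 (Entrez 20296), the main attractant of monocytes, stood at 837, 800.4 and 746 FPKM in NC and 338, 433 and 432 FPKM in TUMOR (log2 -1.11 ± 0.08, adjusted p = 7.04e-08). These 3 genes were named among those whose TUMOR and NC libraries do not overlap. TUMOR 1 was the lowest TUMOR library in all 3. The related monocyte attractant Ccl7 fell from 87.1, 90.4 and 111 FPKM to 37.4, 52.5 and 43.7 FPKM (log2 -1.24 ± 0.11).

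The other falls were in the chemokine genes Ccl9, Ccl20 and Cxcl1, the cytokine genes Csf2, Lif, Il1a and Tslp, and Il1rn, which encodes the interleukin 1 receptor antagonist. Cxcl1 stood at 191, 181 and 292 FPKM in NC and 117, 123 and 112 FPKM in TUMOR (log2 -1.04), and the libraries of Csf2 overlapped. The neutrophil attractants Cxcl2 and Cxcl3 rose, Cxcl2 from 1.53, 1.65 and 2.43 FPKM to 8.71, 5.53 and 5.94 FPKM (log2 1.72 ± 0.25), as did Cx3cl1 (log2 2.36). Over these 3 the ratio of TUMOR 1 to the mean of TUMOR 2 and 3 had a median of 1.54. Cxcl12, the niche chemokine that holds blood stem cells, was not called at log2 -0.33. On the log2(FPKM + 1) scale, limma called 6 of the list lower in place of 12. Genes of this list other than Csf1, Il6, Ccl2 and Ccl7 were picked with their values known.

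NF-kB targets, which include Ccl2 and Cxcl1, gave 1 rise and 4 falls of 17. The subunit genes Nfkb2 and Relb fell, with log2 changes of -1.09 and -1.29, and the inhibitor gene Nfkbia rose from 55.8, 47.7 and 48.4 FPKM to 132, 99.8 and 104 FPKM (log2 1.02 ± 0.11). Complement genes gave 0 rises and 4 falls of 8, among them C3, the central component, from 24.0, 16.5 and 20.9 FPKM to 7.31, 7.86 and 8.23 FPKM (log2 -1.51 ± 0.16, adjusted p = 1.93e-06), the serine protease gene C1ra (log2 -1.20) and Masp1 (log2 -1.15). Cfb, picked with its values known, fell, with a log2 change of -2.43. On the log2(FPKM + 1) scale, limma called 2 of the 8 complement genes lower. 

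Mediators that restrain immune cells gave 4 rises and 2 falls of 15. Ptges (Entrez 64292), which makes prostaglandin E2, stood at 4.69, 4.19 and 5.66 FPKM in NC and 36.2, 25.5 and 26.5 FPKM in TUMOR (log2 2.39 ± 0.15, adjusted p = 2.07e-08). Nos2, the inducible nitric oxide synthase, rose from 5.6, 3.76 and 4.55 FPKM to 14.1, 12.2 and 12.1 FPKM (log2 1.34 ± 0.13), and the galectin gene Lgals9 rose by log2 1.29. The fourth was Il10 at 0 in every replicate in NC and 0.06, 0.06 and 0 FPKM in TUMOR, too low to describe a level. Tnfaip6 (TSG-6), whose product binds hyaluronan and dampens inflammation, fell from 8.56, 6.77 and 7.55 FPKM to 2.06, 2.28 and 2.63 FPKM (log2 -1.84 ± 0.11, adjusted p = 1.15e-08), and Il1rn was the other fall. Ptgs2 (COX-2) and Lgals1, the most abundant galectin gene, were not called, at log2 -0.73 and -0.09.

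Antigen presentation genes gave 5 rises and 0 falls of 15, with a median log2 change of 0.81. Of the 8 that reached 1 FPKM in NC 2 rose (median 0.625). H2-D1 (Entrez 14964), a class I heavy chain, stood at 38.0, 32.9 and 29.9 FPKM in NC and 129.6, 74.8 and 82.4 FPKM in TUMOR (log2 1.53 ± 0.20, adjusted p = 1.47e-05), and the peptide transporter gene Tap2 at 1.80, 1.10 and 1.15 FPKM in NC and 9.77, 6.32 and 6.36 FPKM in TUMOR (log2 2.35 ± 0.22, adjusted p = 8.07e-07). TUMOR 1 was the highest library in both, and over the 5 risers its ratio to the mean of TUMOR 2 and 3 had a median of 1.65. Tap1, Psmb8 and Psmb9, all under 1 FPKM in NC, also rose, and the class I gene H2-K1 and B2m were not called (log2 -0.68 and 0.36). H2-D1 and H2-K1 are near-identical paralogs, so the split of reads between them is uncertain. Interferon response genes gave 3 rises and 5 falls of 24 (median log2 -0.015). Ifit1 fell from 4.03, 5.22 and 7.12 FPKM to 1.93, 2.80 and 2.54 FPKM (log2 -1.30 ± 0.20), the tetherin gene Bst2 rose from 6.01, 5.65 and 5.30 FPKM to 16.0, 10.03 and 12.5 FPKM (log2 1.06 ± 0.16), and the regulator Irf7 was not called (log2 0.92). GAAANNGAA, a short form of the element bound by interferon regulatory factors, was in 11 of the 20 members with a promoter in the table (55.0%), against 7.52% of the tested genes and 7.13% of all windows, and in 4 of the 6 called ones.

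Of 26 tested matrix glycoproteins and cross-linkers 2 rose and 9 fell, with a median log2 change of -0.69. Fn1 (Entrez 14268), fibronectin, stood at 572, 582 and 564 FPKM in NC and 145, 182 and 187 FPKM in TUMOR (log2 -1.87 ± 0.08, adjusted p = 1.1e-09). Fbln5 (Entrez 23876), which assembles elastic fibres, stood at 11.9, 12.3 and 11.3 FPKM in NC and 1.53, 1.98 and 1.87 FPKM in TUMOR (log2 -2.85 ± 0.08, adjusted p = 5.27e-11). Ccn4, a matricellular factor, fell from 33.0, 41.2 and 36.9 FPKM to 8.26, 10.1 and 9.70 FPKM (log2 -2.11 ± 0.08, adjusted p = 4.91e-10). All 3 were named among genes whose TUMOR and NC libraries do not overlap. Tnc, tenascin C, fell from 40.3, 51.1 and 93.8 FPKM to 5.94, 8.70 and 8.57 FPKM (log2 -3.13 ± 0.26), with NC 3 the highest by a wide margin. Ccn2 (log2 -1.22), Fbln2 (-1.32), Fbn1 (-1.14), Nid2 (-1.22) and Ogn (-1.05) were the other falls, and Loxl2 and the basement membrane gene Nid1 (log2 1.13) were the rises. Sparc, Bgn and Dcn were not called, at log2 -0.72, -0.69 and -0.67. Matrix genes other than Fn1, Fbln5, Ccn4 and Loxl2 were picked with their values known.

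Collagens gave 3 rises and 3 falls of 17 and a median log2 change of -0.03, where 9.75% of all genes tested rose and 6.65% fell. Col5a2 fell from 64.5, 77.1 and 64.3 FPKM to 22.1, 27.3 and 27.1 FPKM (log2 -1.55 ± 0.08, adjusted p = 5.02e-09), and Col8a1 and Col4a5 fell, with log2 changes of -1.09 and -1.15. Col18a1, whose product is the source of endostatin, rose from 3.16, 3.41 and 4.06 FPKM to 16.7, 11.8 and 12.1 FPKM (log2 1.70 ± 0.13, adjusted p = 8.82e-08), and Col6a3 and Col7a1, picked with their values known, rose by log2 1.44 and 1.42. The fibrillar collagen genes Col1a1, Col1a2 and Col3a1, of type I and III, were not called (log2 -0.49, -0.55 and 0.31). On the log2(FPKM + 1) scale, limma called 1 collagen lower.

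Contractile genes of the myofibroblast gave 0 rises and 3 falls of 14. Acta2 (Entrez 11475), smooth muscle actin, stood at 231, 357 and 435 FPKM in NC and 94.6, 141 and 137 FPKM in TUMOR (log2 -1.59 ± 0.20, adjusted p = 9.54e-06), and Tagln fell from 11.9, 18.7 and 27.3 FPKM to 5.33, 8.37 and 8.36 FPKM (log2 -1.52 ± 0.25). The spread within NC was wide, from NC 1 the lowest to NC 3 the highest. Cnn1 was the other fall, and its libraries overlapped. The CArG box, which serum response factor binds, was in 4 of 13 promoters of this list (30.77%), against 1.40% of the tested genes and 1.47% of all windows, and in 0 of the 2 called members that the table holds.

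Of 25 tested genes of TGF-beta and BMP signalling 1 rose and 5 fell: Inhba, the activin A subunit, from 47.7, 48.6 and 49.5 FPKM to 14.6, 22.1 and 22.8 FPKM (log2 -1.42 ± 0.12), the BMP antagonist genes Grem1 (log2 -1.10) and Nog (-1.02), and the latent TGF-beta binding genes Ltbp1 (-1.25) and Ltbp2 (-1.36). Id2, a target of BMP signals, rose from 13.9, 19.3 and 20.3 FPKM to 66.2, 58.1 and 57.2 FPKM (log2 1.64 ± 0.12). Other members of the list, Id1, Id3, Smad6 and Smad7, were not called, at log2 -0.55, -0.09, -0.12 and -0.01. They were picked with their values known. The 5 falls became 3 without TUMOR 1 and 2 without NC 3, and 3 with library size alone. Of 27 tested proteases and inhibitors 3 rose and 3 fell, near the shares over all genes tested (9.75% higher and 6.65% lower). The collagenase gene Mmp13 fell from 8.21, 9.43 and 13.0 FPKM to 1.63, 1.80 and 1.61 FPKM (log2 -2.73 ± 0.21, adjusted p = 1.04e-07), and the inhibitor genes Timp1 and Timp3 fell, with log2 changes of -1.24 and -1.72. The rises included Adamts4 and Adamts9 (log2 1.47 and 1.44), which with Grem1 and Nog were picked with their values known.

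**Figure D3:**
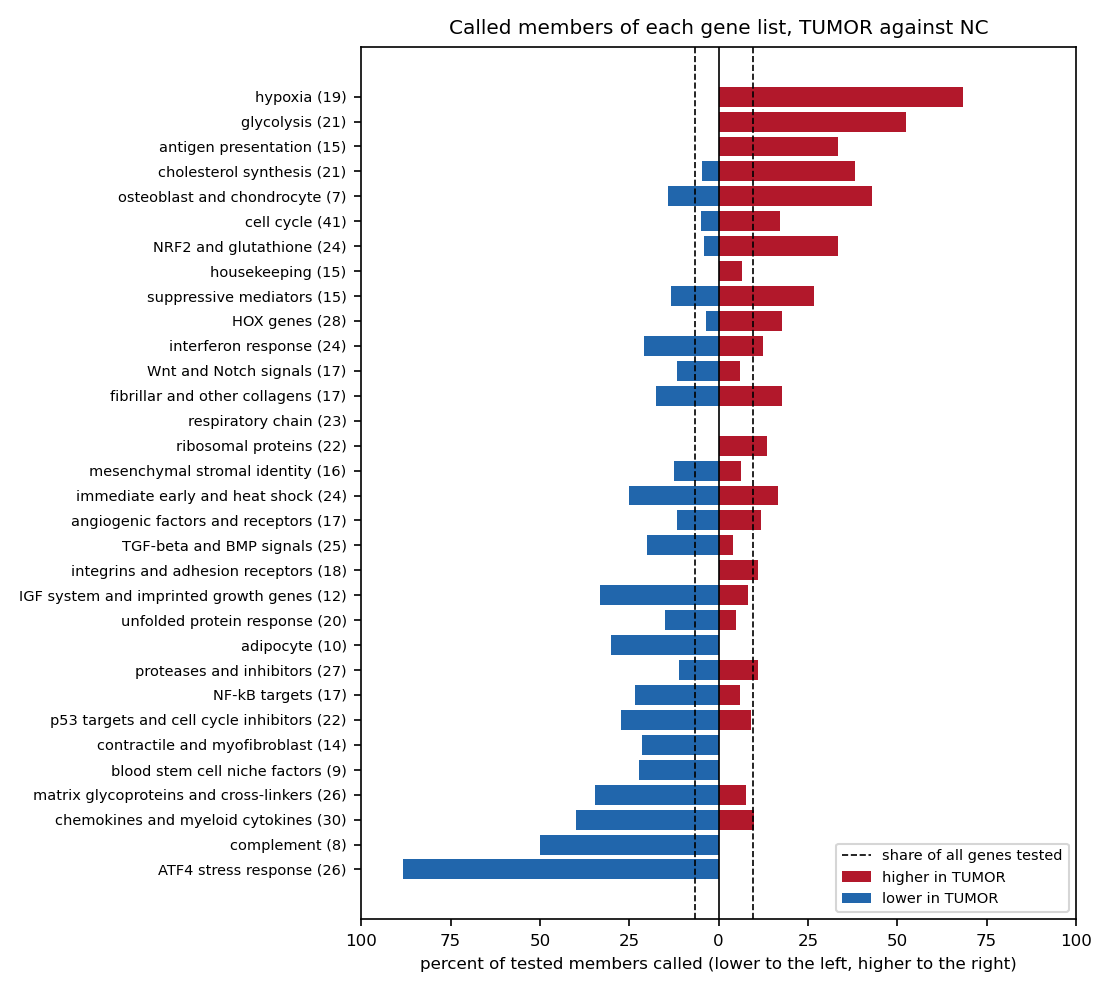
Percent of the tested members of each list that were called lower (bars to the left) or higher (bars to the right) in TUMOR than in NC, with the number tested in brackets and the 32 lists ordered by their median log2 change. The reproductive and germ line list, with 3 genes tested, is not drawn. The dashed lines are the shares over all 12314 genes, 6.65% lower and 9.75% higher; hypoxia (13 of 19 higher) and ATF4 stress response (23 of 26 lower) lie at the ends of the lists drawn.

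Of 21 tested genes of cholesterol synthesis 8 rose and 1 fell, with a median log2 change of 0.80. Srebf2, the transcription factor of the pathway, rose from 15.3, 13.9 and 13.7 FPKM to 36.2, 33.5 and 35.5 FPKM (log2 1.17 ± 0.05, adjusted p = 1.73e-09), and Fdps and Insig1 rose by log2 1.41 and 1.09. Hmgcs1, Idi1 and Hsd17b7 also rose (log2 1.31, 1.86 and 1.08), and Msmo1 was the 1 that fell (log2 -1.18). Hmgcs1, Idi1, Hsd17b7 and Msmo1 were picked with their values known.

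Antioxidant and glutathione genes, a list that includes targets of NRF2, gave 8 rises and 1 fall of 24 (median log2 0.27). Srxn1 (Entrez 76650), sulfiredoxin, stood at 13.0, 12.4 and 14.4 FPKM in NC and 43.5, 41.2 and 42.5 FPKM in TUMOR (log2 1.55 ± 0.06, adjusted p = 4.65e-10). The glutathione transferase genes Gsta4 and Gsta1 rose from 15.3, 16.7 and 19.4 FPKM to 70.0, 76.8 and 71.5 FPKM (log2 1.96 ± 0.09) and from 6.32, 7.21 and 7.11 FPKM to 35.9, 51.6 and 46.3 FPKM (log2 2.57 ± 0.12), and Gstm1 rose by log2 1.09. Transferases of 1 family have near-identical copies, so the reads of Gsta1 and Gstm1 may be shared with relatives. Nqo1, Gsr, Gclm and Sod3, picked with their values known, rose by log2 1.71, 1.45, 1.07 and 1.31. Slc7a11, which belongs to both this list and the ATF4 list, was the 1 that fell, and Hmox1 and Txnrd1 were not called (log2 0.21 and -0.42).

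Early response and heat shock genes gave 4 rises and 6 falls of 24. The transcription factor gene Atf3 fell from 57.7, 55.5 and 63.4 FPKM to 10.5, 11.1 and 10.6 FPKM (log2 -2.58 ± 0.08, adjusted p = 9.83e-11), Klf4 from 42.5, 40.1 and 47.6 FPKM to 14.6, 16.1 and 16.0 FPKM (log2 -1.60 ± 0.07) and Nr4a2 from 9.35, 10.2 and 10.1 FPKM to 2.56, 2.82 and 3.27 FPKM (log2 -1.86 ± 0.08), and Egr1, Ier2 and Nr4a1 fell, with log2 changes of -2.0, -1.22 and -1.10. Hspa1b, an inducible heat shock protein of the HSP70 family, rose from 3.15, 2.33 and 2.48 FPKM to 13.5, 15.6 and 15.3 FPKM (log2 2.35 ± 0.09, adjusted p = 4.68e-10), and its relatives Hspa1a and Hspa8 rose by log2 2.21 and 1.16. Hspa1a and Hspa1b are near-identical copies between which reads are divided with uncertainty. The transcription factor gene Klf6 rose from 0.36, 0.34 and 0.33 FPKM to 17.9, 9.90 and 10.4 FPKM (log2 5.10 ± 0.30). Klf6 also stood at means of 8.87 FPKM in BM and 8.41 FPKM in HOMING. It was not called in TUMOR against either (log2 0.48 and 0.59). Fos and Jun were not called, at log2 -0.77 and 0.28. TGACTCA, the element that AP-1 binds, was in 0 of 17 promoters of this list, against 4.16% of the tested genes and 4.46% of all windows, with 7 called members among the 17. Egr1, Ier2, Nr4a1, Hspa1a, Hspa8 and Klf6 were picked with their values known.

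Of 16 tested stromal identity genes 1 rose and 2 fell, against 9.75% and 6.65% of all genes tested. The endoglin gene Eng rose from 1.03, 0.85 and 0.95 FPKM to 19.3, 10.9 and 11.6 FPKM (log2 3.74 ± 0.23, adjusted p = 1.65e-08), and Mcam and Cspg4, markers of cells around vessels, fell, with log2 changes of -1.53 and -1.74. Pdgfra, Prrx1, Cd44 and Vim were not called (log2 0.48, -0.18, -0.33 and 0.47). Of 7 tested bone and cartilage genes 3 rose and 1 fell, namely the chondrocyte regulator Sox9 from 5.79, 5.31 and 9.25 FPKM to 17.7, 18.1 and 19.4 FPKM (log2 1.31 ± 0.17), Phex (log2 2.17) and Acan (log2 2.16), and Mgp, an inhibitor of mineralisation (log2 -2.22). The osteoblast regulator Runx2 was not called at log2 0.05. Of 10 tested adipocyte genes 0 rose and 3 fell: Cebpb, also an ATF4 partner, the lipid droplet gene Plin2 and the triglyceride synthesis gene Dgat2 (log2 -1.86, -1.31 and -1.53), while Pparg was not called at -0.18. Of 9 niche factors 0 rose and 2 fell, Csf1 and Jag1.

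Of 12 tested genes of the IGF system and of imprinted growth genes 1 rose and 4 fell. Grb10 (Entrez 14783), an adaptor that dampens insulin and IGF signalling, stood at 57.8, 62.5 and 57.7 FPKM in NC and 7.56, 10.6 and 11.6 FPKM in TUMOR (log2 -2.71 ± 0.13, adjusted p = 1.68e-09), and Igf2r, Igfbp3 and Plagl1 fell, with log2 changes of -1.0, -1.08 and -1.32. The imprinted gene Peg3 stood at 0.02, 0.02 and 0.01 FPKM in NC and 2.21, 1.13 and 1.35 FPKM in TUMOR and was the 1 that rose. Of 17 angiogenic factors and receptors 2 rose and 2 fell. Pgf (Entrez 18654), placental growth factor, stood at 0.14, 0.31 and 0.26 FPKM in NC and 10.2, 5.62 and 6.17 FPKM in TUMOR (log2 4.92 ± 0.34, adjusted p = 4.61e-08), and Vegfd rose from 6.94, 5.90 and 8.90 FPKM to 20.4, 21.1 and 21.5 FPKM (log2 1.37 ± 0.12), whereas Fgf7 and Angptl4 fell, with log2 changes of -1.36 and -1.34. Of 18 integrins and adhesion receptors 2 rose, Itga1 and Itgb3, and 0 fell. Of 17 Wnt and Notch genes 1 rose (Notch1) and 2 fell (Wnt11 and Jag1). Of 15 housekeeping genes 1 rose (Gusb, log2 1.09) and 0 fell. The shares over all genes tested were 9.75% higher and 6.65% lower. Counts of the angiogenic, integrin, Wnt and Notch and housekeeping lists lay close to those shares. Peg3, Plagl1, Jag1 and the integrin, Wnt and Notch genes were picked with their values known.

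The 10 largest rises among genes expressed in NC held 3 genes already described (Egln3, Slc16a3 and Ankrd37) and 4 genes of the ribosome. Rpl3 (Entrez 27367) stood at 2.43, 2.19 and 1.40 FPKM in NC and 342, 182 and 194 FPKM in TUMOR (log2 6.34 ± 0.29, adjusted p = 1.55e-09). Rpl29 stood at 16.9, 16.4 and 17.01 FPKM in NC and 1267, 673 and 754 FPKM in TUMOR (log2 5.59), Rpl26 at 11.7, 7.98 and 8.95 FPKM in NC and 497, 276 and 294 FPKM in TUMOR (log2 5.10) and Rpl21 at 2.93, 3.17 and 3.46 FPKM in NC and 207, 116 and 123 FPKM in TUMOR (log2 5.12). Each encodes a protein of the large ribosomal subunit, and each has near-identical processed copies elsewhere in the genome, so these levels are uncertain. Over all 76 ribosomal protein genes, a list added after the data were seen, 10 rose and 0 fell and the median log2 change was -0.075. The 6 risers beside those named were Rpl30, Rpl35a, Rpl37a, Rps2, Rps18 and Rps29. Over these 10 the ratio of TUMOR 1 to the mean of TUMOR 2 and 3 had a median of 1.58. The remaining large rises were the nuclear import receptor gene Kpna2 from 1.65, 1.44 and 1.41 FPKM to 88.02, 48.0 and 49.8 FPKM (log2 5.25 ± 0.25), the potassium channel subunit gene Kcnab2 from 1.56, 0.98 and 1.14 FPKM to 35.2, 20.6 and 21.6 FPKM (log2 4.28 ± 0.25) and the lactate transporter partner gene Emb, embigin, from 1.13, 0.92 and 1.05 FPKM to 25.8, 13.7 and 15.4 FPKM (log2 4.02 ± 0.27). TUMOR 1 was the highest library in 10 of these 10 genes. For Ankrd37 its ratio to the mean of TUMOR 2 and 3 was only 1.07. Of all 542 called rises of at least 5 FPKM in TUMOR and 1 FPKM in NC, TUMOR 1 was the highest in 424 (78.23%). Each of the 10 genes was also called higher than NC in HOMING, and each except Ankrd37 in BM. Rpl29, for example, stood at means of 245 FPKM in BM and 98.1 FPKM in HOMING. Emb was not called in TUMOR against HOMING (log2 0.73).

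The 10 largest falls were of varied function. Ptx3 (Entrez 19288), pentraxin 3, a soluble pattern recognition molecule, stood at 775, 698 and 556 FPKM in NC and 31.8, 43.8 and 41.8 FPKM in TUMOR (log2 -4.23 ± 0.13, adjusted p = 6.14e-11). Saa3 (Entrez 20210), an acute phase protein, stood at 346, 175 and 167 FPKM in NC and 24.0, 24.3 and 23.8 FPKM in TUMOR (log2 -3.37 ± 0.24, adjusted p = 6.41e-08). For both, NC 1 was the highest NC library. Stard5, which binds cholesterol, stood at 48.6, 51.2 and 54.0 FPKM in NC and 4.55, 5.83 and 5.38 FPKM in TUMOR (log2 -3.41 ± 0.10, adjusted p = 4.15e-11), and Soat2, which esterifies cholesterol, at 13.5, 15.0 and 15.4 FPKM in NC and 1.51, 1.65 and 1.54 FPKM in TUMOR (log2 -3.37 ± 0.11, adjusted p = 1.04e-10). Cth has been described. Lower-level members were the metalloreductase gene Steap4 (12.4, 6.95 and 6.32 to 0.63, 0.75 and 0.74 FPKM), the aldo-keto reductase gene Akr1b7 (7.06, 6.33 and 4.18 to 0.43, 0.63 and 0.58 FPKM), the ATP-gated channel gene P2rx3 (8.87, 7.57 and 3.95 to 0.58, 0.58 and 0.55 FPKM) and the proline-rich protein gene Prr32 (7.38, 7.02 and 6.11 to 0.22, 0.20 and 0.41 FPKM, log2 -4.74). The connexin gene Gjb2 stood at 1.85, 3.53 and 10.8 FPKM in NC and 0.33, 0.34 and 0.45 FPKM in TUMOR (log2 -3.99 ± 0.56, adjusted p = 3e-05), and most of its NC level came from NC 3. Fhl1, picked with its values known, joined Akr1b7, Gjb2, P2rx3, Prr32 and Steap4 as the 6 genes with at least 5 FPKM in NC and under 1 in TUMOR.

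**Figure D4:**
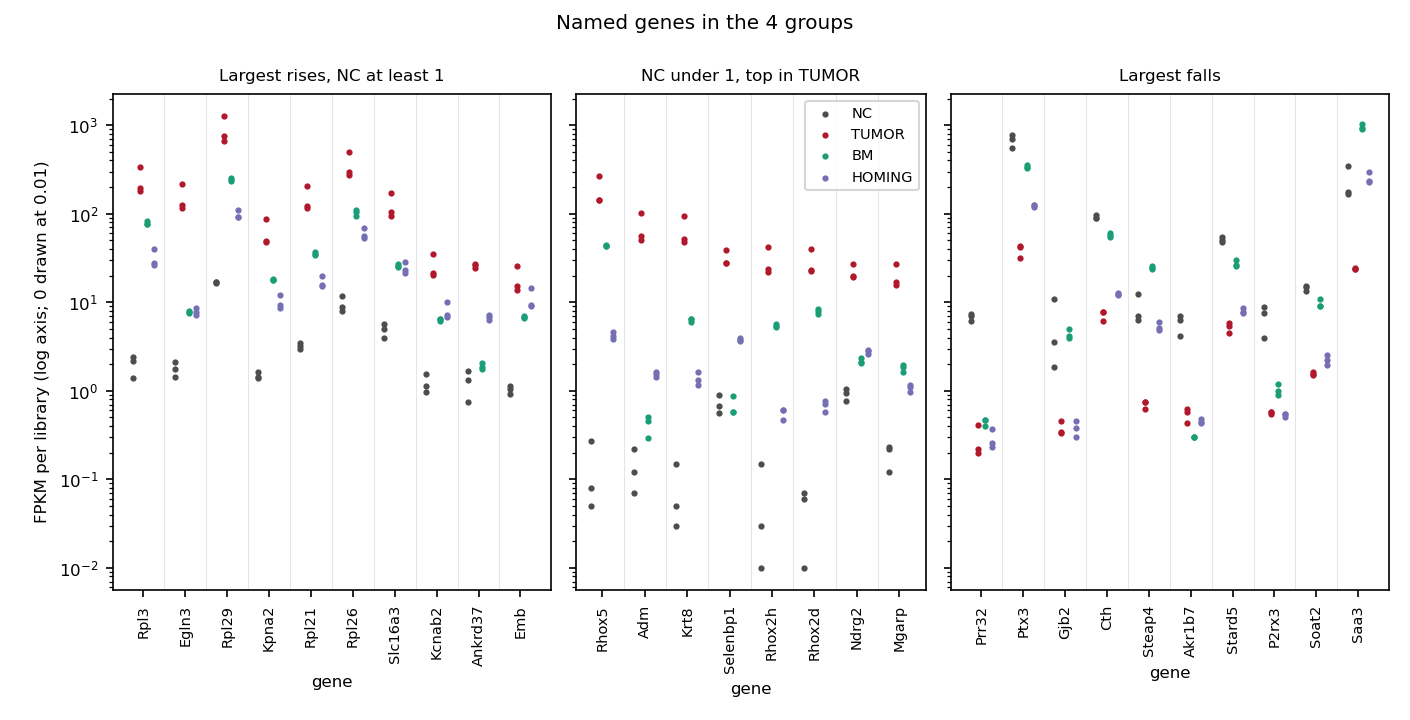
FPKM per library (y axis, log scale, 0 drawn at 0.01) of the 10 largest rises among genes expressed in NC, the 8 highest genes in TUMOR among those under 1 FPKM in NC, and the 10 largest falls, with 3 points for each of the groups NC, TUMOR, BM and HOMING. The 28 genes were chosen among called genes whose NC and TUMOR libraries do not overlap. The means of BM and HOMING lie between those of NC and TUMOR for each of the 10 rises.

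Genes nearly silent in culture reached high levels at the injection site, and several of them were also above culture in the marrow groups. The 8 highest in TUMOR among genes under 1 FPKM in NC were led by Rhox5 (Entrez 18617), an X-linked homeobox gene of reproductive tissue, at 0.27, 0.08 and 0.05 FPKM in NC and 268, 144 and 143 FPKM in TUMOR (log2 10.24 ± 0.40, adjusted p = 4.68e-10). Krt8 (Entrez 16691), a keratin of simple epithelia, stood at 0.15, 0.03 and 0.05 FPKM in NC and 93.8, 48.1 and 51.9 FPKM in TUMOR (log2 9.59 ± 0.41, adjusted p = 8.39e-10). Rhox2h stood at 0.15, 0.03 and 0 FPKM in NC and 42.4, 21.8 and 23.6 FPKM in TUMOR and Rhox2d at 0, 0.06 and 0.07 FPKM in NC and 39.9, 22.7 and 23.2 FPKM in TUMOR. Rhox2h and Rhox2d are close copies, so the division of reads between them is uncertain. In these 4 genes TUMOR 1 stood well above TUMOR 2 and 3. Rhox5, Krt8, Rhox2h and Rhox2d stood at means of 43.6, 6.29, 5.45 and 7.97 FPKM in BM. In HOMING their means were 4.21, 1.38, 0.563 and 0.683 FPKM, and all 4 were called higher than NC in both groups. Adm and Selenbp1 were not called in BM against NC. Adm has been described, and the others were Selenbp1, a selenium-binding protein gene, from 0.90, 0.68 and 0.56 FPKM to 39.3, 27.8 and 28.1 FPKM (log2 5.34 ± 0.20), Ndrg2, a stress-responsive gene, from 1.05, 0.95 and 0.77 FPKM to 27.3, 19.09 and 19.9 FPKM (log2 4.46 ± 0.16), and Mgarp, a mitochondrial gene raised by hypoxia, from 0.23, 0.22 and 0.12 FPKM to 27.0, 15.9 and 16.9 FPKM (log2 6.54 ± 0.28). In the reproductive and germ line list 3 of 31 genes passed the filter, Rhox5, Rhox2d and Rhox2h.

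Homeobox genes of the HOXD cluster were also near silent in culture. Of 28 tested HOX genes, which set position along the body axis, 5 rose and 1 fell. The 5 rises were HOXD genes under 1 FPKM in NC that passed the filter through groups in which they were higher, and of the 23 HOX genes of at least 1 FPKM in NC 0 rose and 1 fell (median log2 0.075). Hoxd8 (Entrez 15437) stood at 0.03, 0 and 0.02 FPKM in NC and 10.9, 6.51 and 7.44 FPKM in TUMOR (log2 8.90 ± 0.40, adjusted p = 1.37e-09). Hoxd9 stood at 0.02, 0 and 0 FPKM in NC and 10.3, 6.03 and 6.23 FPKM in TUMOR, a ratio of counts scaled by library of 1059 with an exact 95% interval of 293 to 8747 that covers counting error only. Hoxd8 and Hoxd9 stood at means of 1.28 and 1.30 FPKM in BM and 0.177 FPKM each in HOMING, also called higher than NC. Hoxd10, with 2 counts in NC, reached 6.16, 3.81 and 4.11 FPKM in TUMOR (ratio 573, interval 158 to 4737). No read of Hoxd4 or Hoxd3 was counted in NC, and with 3 counts taken as the limit for that group TUMOR was at least 311-fold higher for Hoxd4 and at least 110.4-fold higher for Hoxd3. Of the HOXA, HOXB and HOXC genes 23 were tested and 22 of them were not called, the exception being Hoxc13, which fell from 11.5, 13.9 and 13.4 FPKM to 4.27, 6.16 and 6.67 FPKM (log2 -1.31 ± 0.14). Hoxd3, Hoxd4 and Hoxd10 were picked with their values known.

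Tested genes under 1 FPKM in NC made up 0.102, 0.0958 and 0.101% of the summed FPKM in NC and 0.546, 0.376 and 0.389% in TUMOR. They made up 0.297 to 0.299% in BM and 1.70 to 2.68% in HOMING. The set was defined by its low NC level and passed the filter through other groups. Its lower share in NC was therefore largely fixed in advance, and these shares are a description. Red cell markers summed to 2107 to 3470 FPKM in HOMING and neutrophil markers to 1704 to 2492 FPKM. Their part in the HOMING share was not tested. Of the 542 called higher, 68 had at least 5 FPKM in TUMOR. Over these 68 the ratio of TUMOR 1 to the mean of TUMOR 2 and 3 had a median of 1.74, with 1.47 and 1.90 at its 10th and 90th percentiles, and TUMOR 1 was the highest library in 67 of the 68 (98.53%). Over all 8663 tested genes of at least 5 FPKM in TUMOR the median was 1.00, with 0.859 and 1.17 at those percentiles, and TUMOR 1 was the highest in 43.62%. Called genes expressed in NC had medians of 1.14 for the 542 rises and 0.902 for the 398 falls of at least 5 FPKM. TUMOR 1 was the highest library in 424 of those 542 rises (78.23%) and in 56 of those 398 falls (14.07%). The 68 genes stood in BM at a median of 0.235 of their TUMOR mean and in HOMING at 0.084. Krt19, the other epithelial marker that rose, stood at 1.76, 2.25 and 4.15 FPKM in NC and 21.0, 21.3 and 22.4 FPKM in TUMOR, with a ratio of 0.96. Several list members described above also lay under 1 FPKM in NC. Among genes of at least 1 FPKM in NC, 12 of 18 hypoxia genes rose, 1 of 19 chemokines and cytokines rose and 10 fell, 1 of 14 interferon genes rose and 3 fell, 2 of 21 early response and heat shock genes rose and 6 fell, and 0 of 14 stromal identity genes rose and 2 fell. On the same base 3 of 10 suppressive mediators, 2 of 16 collagens, 1 of 22 proteases and inhibitors, 2 of 6 bone and cartilage genes, 1 of 14 angiogenic genes, 7 of 20 cholesterol genes, 1 of 15 integrins, 0 of 15 Wnt and Notch genes and 0 of 11 IGF and imprinted genes rose. The ratios of TUMOR 1 for members under 1 FPKM in NC included 1.89 for Adm, 1.73 for Pgf, 1.76 for Klf6, 1.78 for Peg3, 1.72 for Eng, 1.31 for Tap1, 1.78 for Psmb8 and 1.98 for Psmb9, and on the low side 0.68 for Acan, 0.72 for Adamts9 and 0.88 for Col7a1. Which part of these levels is RNA of the co-injected carcinoma cells was not tested, and no library of that line is among the 12.

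**Figure D5:**
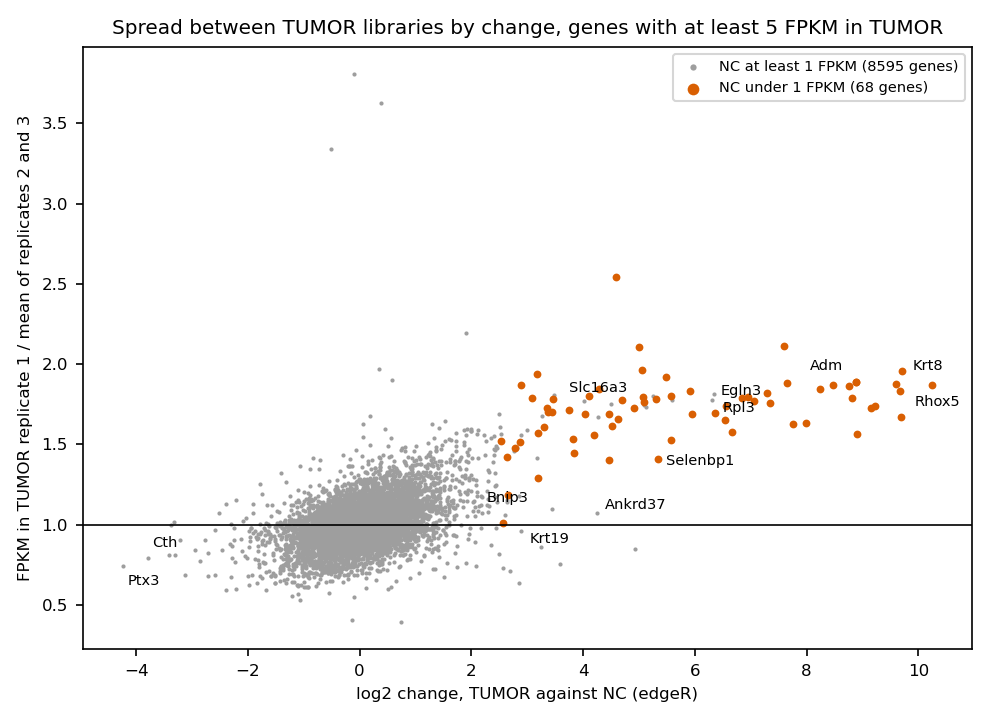
Ratio of FPKM in TUMOR 1 to the mean of TUMOR 2 and 3 (y axis) against the log2 change of TUMOR over NC (x axis) for the 8663 tested genes with at least 5 FPKM in TUMOR, with the 68 genes under 1 FPKM in NC in orange. The grey cloud lies around 1, the orange points lie mostly between 1.47 and 1.90, and Ankrd37 and Krt19 lie near 1 among the genes that rose.

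Genes of the Y chromosome, examined after their values were seen, were near 0 in NC and present in TUMOR. Eif2s3y (Entrez 26908), a translation initiation subunit, stood at 0, 0.01 and 0 FPKM in NC and 7.75, 3.90 and 4.03 FPKM in TUMOR, from 1 count over NC and 1179 over TUMOR (ratio 1239, exact 95% interval 222 to 48995). Ddx3y, an RNA helicase gene, stood at 0, 0.01 and 0 FPKM in NC and 2.39, 1.46 and 1.34 FPKM in TUMOR, from 2 and 1035 counts (ratio 544, interval 150.2 to 4498). The histone demethylase genes Kdm5d and Uty, not tested because of their low level, had 0 counts in NC against 485 and 372 in TUMOR, at least 169.9-fold and at least 130.4-fold more. TUMOR 1 was the highest library for each of these 4 genes, with a ratio of 1.95 for Eif2s3y and 1.71 for Ddx3y. Over the 5 Y-linked genes with at least 20 counts the NC libraries held 10 counts in all and the TUMOR libraries 3084. Eif2s3y stood at 1.26, 1.17 and 1.24 FPKM in BM and 1.89, 2.06 and 2.82 FPKM in HOMING. The X-linked partners Eif2s3x and Ddx3x were expressed in both groups and not called, at log2 0.03 and -0.61, and Xist, which silences an X chromosome in female cells, stood between 0.01 and 0.05 FPKM in all 6 libraries.

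Markers of other cell types were low in both groups except for keratins. The summed FPKM of 12 epithelial markers was 2.34, 2.68 and 4.61 in NC and 116, 70.5 and 75.1 in TUMOR, almost all of it Krt8 and Krt19, with Epcam and Cdh1 near 0. Of 11 macrophage and pan-leukocyte markers the sum was 16.6, 13.6 and 19.45 in NC and 25.2, 25.4 and 25.7 in TUMOR: Cd68 rose from 5.89, 4.66 and 5.23 FPKM to 12.4, 12.3 and 12.5 FPKM (log2 1.12 ± 0.16) and Csf1r by log2 1.94, and Ptprc, Adgre1, Itgam and C1qa were at or near 0. Neutrophil markers summed to 1.30 to 2.72 in NC and 0.90 to 2.54 in TUMOR, lymphocyte markers to at most 0.22 in any of the 6 libraries, and endothelial markers to 1.57 to 2.07 in NC and 0.91 to 1.06 in TUMOR. Red cell markers summed to 0.35 to 0.89 in NC and 1.21 to 2.15 in TUMOR, most of it the globin gene Hba-a1. Skin keratinocyte, skeletal muscle and fat cell markers summed to under 2 FPKM in each of the 6. The part of such cells in the changes above was not tested.

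Hypoxia genes were also higher in TUMOR than in the cells recovered from marrow. These contrasts share the TUMOR libraries with the one above, so each is given by its own values. Against BM 856 genes were higher in TUMOR (6.95%) and 896 lower (7.28%), and against HOMING 544 were higher (4.42%) and 785 lower (6.37%). Of the 19 hypoxia genes 11 were higher than in BM and 14 higher than in HOMING, and 0 were lower in either. Egln3 stood at 7.89, 7.85 and 7.55 FPKM in BM and 7.73, 7.14 and 8.72 FPKM in HOMING (log2 4.26 ± 0.22, adjusted p = 6.37e-09 against BM), and Ankrd37 at 1.84, 1.76 and 2.08 and 7.19, 6.83 and 6.30 FPKM (log2 3.73 ± 0.18, adjusted p = 3.49e-09 against BM). Adm stood at 0.51, 0.29 and 0.46 FPKM in BM and 1.42, 1.54 and 1.62 FPKM in HOMING, under the TUMOR level of every library. Of the 21 glycolysis genes 5 were higher than in BM and 5 higher than in HOMING, with 0 lower than in BM and 1 lower than in HOMING.

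Of the 26 ATF4 genes 20 were lower in TUMOR than in BM and 2 were lower than in HOMING. Chac1 stood at 228, 239 and 227 FPKM in BM and 25.3, 23.3 and 23.3 FPKM in HOMING (log2 -3.44 ± 0.09, adjusted p = 3.93e-11 against BM; log2 -0.13 ± 0.08, adjusted p = 0.186 against HOMING). Cth stood at 56.9, 54.4 and 61.4 FPKM in BM and 12.9, 12.2 and 12.3 FPKM in HOMING. Of the 30 chemokines and cytokines 23 were lower than in BM and 23 lower than in HOMING, with 1 higher in each case, and Ccl2 stood at 2287, 2408 and 2541 FPKM in BM and 1197, 1275 and 1275 FPKM in HOMING. Saa3 stood at 901, 943 and 1023 FPKM in BM (log2 -5.36 ± 0.26, adjusted p = 3.32e-09), above its level in culture. The summed neutrophil markers were 49.4 to 57.8 FPKM in BM and 1704 to 2492 FPKM in HOMING, and their part in the contrasts with marrow was not tested.

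The files list transcripts, so the share of each transcript in its gene was compared as well. Of 15933 transcripts tested in 5390 genes, 151 (0.948%) changed their share by at least 20 percentage points at an adjusted p under 0.05 in edgeR, in 107 genes. In Kcnab2 the share of NM_001252654 was 79.1, 84.6 and 82.3% in NC and 4.87, 11.6 and 7.52% in TUMOR, and that of NM_001252655 was 15.7, 15.4 and 7.03% and 84.2, 78.2 and 74.9%. In Tdg, a DNA glycosylase gene, the annotated transcript NM_172552 held 0, 1.55 and 2.23% in NC and 58.9, 55.8 and 59.4% in TUMOR. In Rpl3 the annotated transcript NM_013762 held 40.7, 28.5 and 15.1% in NC and 99.0, 98.3 and 98.2% in TUMOR, and in Rpl21 NM_019647 held 32.1, 30.8 and 30.2% and 95.1, 92.4 and 92.9%. In these 3 genes most of the NC share belonged to transcripts that the authors list as new models, such as 98.6% in Tdg and 71.9% in Rpl3. In the noncoding gene AI506816 a new model rose from 28.3, 28.2 and 28.5% to 94.5, 86.9 and 89.3%. Fermt3 gave the largest change but stood near 0.30 FPKM in both groups, too sparse to describe.

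The level of 1 FPKM in NC that separates the sets runs through a continuous range of levels. The 2 genes just above it were Aqp5 at 0.75, 0.75 and 1.5 FPKM in NC and 2.94, 3.68 and 3.10 FPKM in TUMOR, called higher (log2 1.57), and Dennd2c at 0.97, 0.98 and 1.05 FPKM in NC and 2.0, 1.83 and 2.04 FPKM in TUMOR, not called (log2 0.85). The 2 just below were Aldh4a1 and Igf2bp1, not called at log2 0.39 and -0.10. At the other end, of the 10 most abundant genes in TUMOR 0 were called. They included Eef1a1, Gapdh, Pkm, the ferritin genes Ftl1 and Fth1 and the galectin gene Lgals1, with Gapdh at 3688, 3262 and 3152 FPKM in NC and 5747, 5489 and 5643 FPKM in TUMOR.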

How the data were processed

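The series holds 12 RNA-seq libraries of sorted GFP cells, 3 in each of 4 groups. The 6 NC and TUMOR libraries are compared here, and all 12 share the estimate of spread (8 residual degrees of freedom). Total RNA was extracted with Trizol and libraries were made with a TruSeq kit, per the labels' protocols. The submitters' processing notes name Bowtie 0.12.2 and build mm8, and the sources used here do not give the program that made the counts. The deposited tables give an expected count for each transcript, an estimate that shares ambiguous reads among transcripts, and the authors also deposited FPKM for each transcript. Both were summed per gene (absent transcripts as 0), which gave 21001 genes. Of 19679 Entrez numbers 19629 matched a symbol, and 1322 genes had no Entrez number.

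Gene sums of expected counts were rounded and tested with edgeR 4.0.16 (quasi-likelihood, TMM) under R 4.3.3 for genes of at least 1 FPKM in at least 3 libraries. The SE is the log2 change divided by the square root of F. Transcript shares were tested with edgeR's diffSpliceDGE for transcripts with a mean of at least 50 counts. The test was checked on simulated data. Totals were 43232145 to 46166519 expected counts, and intervals and floors cover counting error only. Alternatives used DESeq2 1.42.0, limma 3.58.1, other scalings, filters, pseudocounts, NC levels, a replicate block and each replicate left out. Python 3.11.15, pandas 2.3.3 and matplotlib 3.10.9 read the tables and drew the figures. Promoters are RefSeq windows of GRCm38.p6, used for letters only.

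Named genes were called, reached a mean of 5 FPKM in NC or TUMOR and had libraries that did not overlap: the 10 largest rises and falls among genes of at least 1 FPKM in NC, the 8 highest in TUMOR of those under 1 FPKM in NC, and up to 4 members of each list with the smallest adjusted p. Separation of the NC and TUMOR libraries was thus a condition for genes named by this rule and is no result. Predicted genes and receptor segments were left out. The 10 most abundant genes in TUMOR, the 2 genes on each side of 1 FPKM in NC, the 6 genes with the largest change of transcript share and any member of a marker list could be named too. The groups compared and the gene lists were chosen with earlier results of these data known. A few members of the lists are not reported here by name, and the list counts include them.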

Additional observations from a re-analysis of the deposited data

How the results depend on the processing

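Single genes were recomputed only for the 10 largest rises, 10 largest falls and 8 highest genes under 1 FPKM in NC. All 473 of their values kept the direction and side of the threshold under the alternatives. These genes lay far from the 2-fold line, so that outcome was nearly fixed in advance. Genes near that line were not recomputed singly. Counts for all genes came to 1199 higher and 835 lower with DESeq2, 1187 and 832 with median-ratio scaling, and 1464 and 637 with library size alone. With limma on log2(FPKM + 1), 419 genes were lower, and 273 of those under 1 FPKM in NC were higher. On that scale a gene under 1 FPKM in NC cannot fall by the 2-fold minimum. That all 419 lay in the set of at least 1 FPKM in NC was thus fixed in advance. Without a filter 2071 were higher, 1349 lower and 1487 higher among genes under 1 FPKM in NC. A filter at 5 FPKM left 661 higher, 510 lower, 498 lower among genes of at least 1 FPKM in NC and 89 higher among those below. With no minimum fold change 4577 were higher and 4491 lower, of which 3876 and 4411 reached 1 FPKM in NC. Leaving out 1 replicate at a time gave 1108 to 1271 higher and 745 to 882 lower. With the replicate block 1199 were higher and 819 lower, and the block moved no count by over 1.5 times. It changed no call of the genes recomputed singly. Deviations of TUMOR and NC libraries with the same number had correlations of 0.096, -0.104 and 0.081. These values cannot show whether libraries of the same number were prepared together, and the labels do not say. Of the list counts, an alternative added after seeing the data, 316 stayed within 1.5 times and 26 did not, most of them with no minimum fold change. Beside those given with the lists, limma on log2(FPKM + 1) called 3 antigen presentation genes higher in place of 5, no filter gave 5 contractile genes lower in place of 3, and the filter at 5 FPKM left 2 HOX genes higher in place of 5. The causes of these shifts were not tested. Moving the NC level to 0.5 FPKM left 374 higher genes below it, and 2 FPKM left 716. Genes such as Kdm5d and Uty had too low a level to pass the filter and were not tested.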

Other observations

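Genes with a mean under 1 FPKM in TUMOR made up 0.112, 0.109 and 0.117% of the summed FPKM in NC and 0.0595, 0.0628 and 0.0614% in TUMOR, over 815 tested genes. This set was defined by its low TUMOR level, so its lower share in TUMOR was largely fixed in advance. Only 6 genes of at least 5 FPKM in NC fell under 1 FPKM in TUMOR, while 68 genes went from under 1 FPKM in NC to at least 5 FPKM in TUMOR. Over these 68 genes the ratio of each TUMOR library to the mean of the other TUMOR libraries had a median of 1.74 for TUMOR 1, 0.705 for TUMOR 2 and 0.768 for TUMOR 3.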
